A study of Mus musculus with 11 samples.

Results

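The genes described are those of insulin-like growth factor 1 (Igf1), its receptor (Igf1r) and 5 IGF binding proteins, followed over every array of mouse embryonic stem (ES) cells, their differentiated progeny and fibroblast feeder cells. All probe sets annotated with exactly 1 gene symbol equal to one of the 7 listed genes were taken. This gave 10 probe sets of 6 genes, among 8251 genes that had such a probe set on the array. The only probe set of Igfbp5 carried 2 symbols, so no value is given for it. Each of 11 RNA samples was hybridised to 1 Affymetrix MG_U74Av2 array. The 3 undifferentiated samples (Undiff, replicates 1, 5 and 9) were ES cells of the mouse line R1, kept on a layer of mouse embryonic fibroblasts. The same line had been differentiated for 4+8 days (replicates 1, 2 and 3) or 4+11 days (replicates 4, 8 and 12) towards progeny marked by nestin, a filament protein found in neural progenitors. The 2 feeder samples (replicates 6 and 10) were the fibroblasts themselves. No gene was altered in any group, all ES samples came from 1 line, and the labels speak of 3 independent cultures without saying whether this holds for the feeder cells. The 2 feeder arrays may therefore differ by technical spread only. All groups share 1 estimate of spread in the model, so p-values that involve the feeder arrays assume that they vary like the other groups.

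IGF1 and IGF2 are secreted peptides that promote growth and survival through the IGF1 receptor, a tyrosine kinase that signals through insulin receptor substrates, phosphoinositide 3-kinase and Akt. Most IGF outside cells is held by binding proteins, which keep the peptides from the receptor or carry them to it and are cut by secreted proteases. In embryos the system sets growth, and fibroblasts and other mesenchymal cells are known sources of several binding proteins.

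The arrays fell apart by handling as well as by group. The 4+8 day arrays had a scan session and chip lot of their own, and group cannot be told apart from session wherever they are compared. Their deposited intensities also had trimmed means of 200.11 to 200.12, against 86.15 to 160.21 on the other arrays. One session and 1 lot covered the remaining 8 arrays, which went through 3 fluidics runs, and 2 of the runs held all 3 of those groups. Another wash protocol was used for undifferentiated replicate 9 and 4+11 day replicate 12. Differences within runs, given below, set 1 array against 2 undifferentiated arrays in run 1 and against 1 in run 2. The undifferentiated array of run 2 was replicate 9, so differences from it cannot be told apart from wash. Between 4+11 day and feeder cells both runs set 1 array against 1. Feeder replicate 10 has the ES line as its source name and feeder layer as its title; the title was used, and Pou5f1, a pluripotency factor, read 6.89 to 10.9 on the feeder arrays against 1650 to 2720 on the undifferentiated ones. Pluripotency markers (8 of 8) summed to 17100 to 19400 on the undifferentiated arrays, 318 to 1780 after 4+8 days, 288 to 2270 after 4+11 days and 177 to 201 on the feeder arrays. The defining markers Pou5f1 and Nanog read 22.8 to 31.7 and 32.1 to 35.9 after 4+8 days. After 4+11 days they read 7.01 to 13.1 and 11.6 to 25.2. Sox2, of the same list, read 74.3 to 1340 after 4+8 days and 151 to 2110 after 4+11 days. Fibroblast markers (15 of 16 had a probe set) summed to 50500 to 55400 on the feeder arrays, 9870 to 15500 on the undifferentiated, 12200 to 45800 on the 4+8 day and 16100 to 29300 on the 4+11 day arrays, and both defining markers, Col1a1 and Col1a2, were above the intensity filter on all arrays. Nes, the nestin gene, read 165 to 216 on the undifferentiated, 195 to 417 on the 4+8 day, 385 to 599 on the 4+11 day and 351 to 573 on the feeder arrays, while Sox1, the other defining marker of neural progenitors, lay at or below the filter on 8 of 11 arrays.

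Against undifferentiated cells, Igf1 and Igfbp4 were higher at 4+8 days, Igfbp3 and Igfbp4 higher and Igfbp6 lower at 4+11 days, and Igfbp3, Igfbp4 and Igfbp6 higher in feeder cells. The call used throughout is a limma adjusted p below 0.05 over 8940 probe sets, with log2 differences on the log2(intensity + 8) scale, which understates changes of dim genes. At 4+8 days 2 of 6 genes were called higher and 0 lower, where 37.1% of all probe sets were called (17.2% higher, 19.9% lower), and the genes' median difference was 0.83 against 0.01 over all probe sets. At 4+11 days 2 were called higher and 1 lower, where 18.7% of all probe sets were called (9.22% higher, 9.44% lower), with a median of 0.46 against −0.03. In feeder cells 3 were called higher and 0 lower, where 20.4% of all were called (10% higher, 10.3% lower), with a median of 1.64 against −0.02. These comparisons share the undifferentiated arrays. The 2 groups' arrays did not overlap for 2 of 6 genes at 4+8 days (48.2% of all probe sets), 4 at 4+11 days (46.3%) and 5 in feeder cells (61.7%).

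The remaining comparisons set the differentiated groups against each other and against feeder cells. From 4+8 to 4+11 days 0 genes were called higher and 2 lower (Igf1 and Igfbp6), where 23.1% of all probe sets were called (12.2% higher, 10.8% lower), with a median of −0.37 against 0.05. Between 4+8 day and feeder cells 1 was called higher (Igf1) and 2 lower (Igfbp3 and Igfbp6) at 4+8 days, where 27.4% of all were called (12.5% higher, 14.9% lower), with a median of −0.78 against 0.01. Between 4+11 day and feeder cells 0 were called higher and 1 lower (Igfbp6), where 2.93% of all were called (1.13% higher, 1.8% lower), with a median of −0.29 against 0.02. In the same order, the groups did not overlap for 1 gene (35.2% of all probe sets), 5 genes (51.1%) and 3 genes (39.5%). Igf1r and Igfbp2 were called in none of the 6 comparisons.

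**Figure D1:**
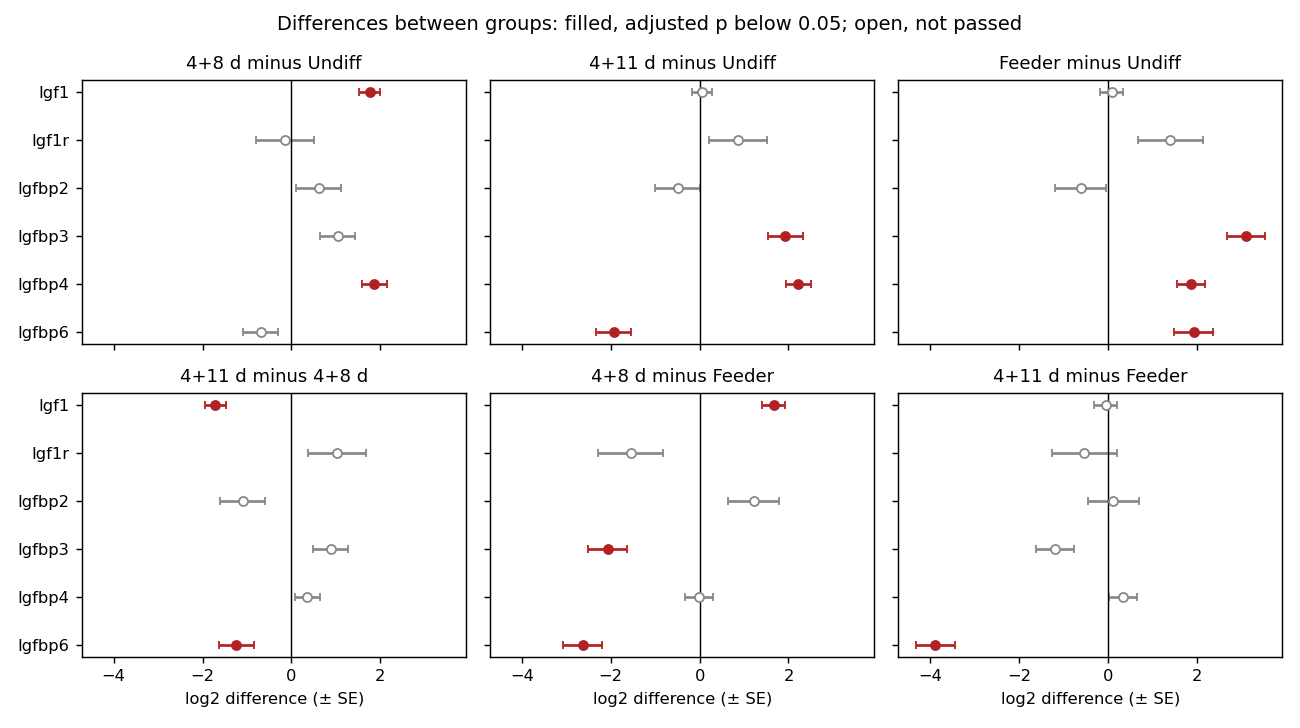
Log2 differences (x axis, points, with bars of ± 1 SE from the limma model) of 6 IGF axis genes in 6 comparisons of groups. Filled points passed an adjusted p below 0.05: Igf1 passed in each comparison that involves 4+8 day cells, and Igfbp6 is the farthest to the left at −3.88 between 4+11 day and feeder cells.

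Igf1 encodes the ligand. Its probe set 95545_at read 103, 115 and 65.6 in undifferentiated replicates 1, 5 and 9. It read 283, 334 and 385 in the 4+8 day replicates 1, 2 and 3. In 4+11 day replicates 4, 8 and 12 it read 91.9, 86.2 and 110. All 3 of the 4+8 day arrays thus lay above every other array, and the 4+11 day arrays lay within the undifferentiated range. Feeder replicates 6 and 10 read 111 and 87.4, also within that range. The 4+8 day group exceeded undifferentiated cells by 1.76 (SE 0.23, adjusted p = 0.000507, limma) and feeder cells by 1.67 (SE 0.26, adjusted p = 0.0022). From 4+8 to 4+11 days Igf1 fell (−1.71, SE 0.23, adjusted p = 0.00212). In each of these comparisons group cannot be told apart from scan session and chip lot. The 4+11 day and feeder groups differed from undifferentiated cells by 0.05 (adjusted p = 0.912) and 0.09 (adjusted p = 0.862). In order of level Igf1 ran from 4+8 day through feeder and 4+11 day to undifferentiated cells, and the first step alone passed the test.

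The other probe set of Igf1, 95546_g_at, gave another picture. It read 5.28, 20.5 and 5.26 in undifferentiated cells, all below the filter of 33.4. At 4+8 days it read 68.5, 5.26 and 44.6, and at 4+11 days 86.1, 29.7 and 184. Both differentiated groups were spread widely over their replicates. The feeder arrays read 116 and 84.4, above all 3 undifferentiated arrays. This probe set did not pass the test for 4+8 day against undifferentiated cells (1.14, SE 0.71, adjusted p = 0.229). That difference passed as deposited (2.09, adjusted p = 0.0139) and without 4+8 day replicate 2 (1.89, adjusted p = 0.0347). With the settings used throughout, 95546_g_at did pass for 4+11 day cells (2.36, SE 0.71, adjusted p = 0.0441) and for feeder cells (2.64, SE 0.79, adjusted p = 0.0415). These calls were kept in 9 and 10 of 19 alternative settings. From 4+8 to 4+11 days 95546_g_at differed by 1.22 (adjusted p = 0.237), and 4+8 day minus feeder cells by −1.51 (adjusted p = 0.185). Both are opposite in sign to 95545_at and neither was called. Over the 11 arrays the 2 probe sets of Igf1 correlated at r = −0.0517. With the settings used throughout, the Igf1 calls that involve 4+8 day cells thus rest on 95545_at. The probe sets' target positions within the transcript were not used here.

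Markers of other cell types stand beside the 2 Igf1 readings as follows. Cardiac muscle markers (8 of 8) summed to 7040 to 16100 at 4+8 days against 359 to 395 in undifferentiated, 1190 to 3590 in 4+11 day and 841 to 1680 in feeder cells. Their defining genes Myh6 and Myh7 lay at or below the filter on every undifferentiated and feeder array. Endothelial markers (5 of 5) summed to 326 to 560 at 4+8 days, 90.8 to 112 in undifferentiated, 140 to 204 in 4+11 day and 84.7 to 99.2 in feeder cells. Endoderm markers (6 of 6) summed to 536 to 1600, 78.3 to 117, 317 to 897 and 134 to 147 in the same order. The cardiac muscle and endothelial sums, like 95545_at, were higher on every 4+8 day array than on any other array. The endoderm sums of 4+8 and 4+11 day cells overlapped, with 536 in 4+8 day replicate 2 and 897 in 4+11 day replicate 4. At 4+11 days all 3 sums also lay above the undifferentiated ones, while 95545_at lay within the undifferentiated range, and their part in the Igf1 result was not tested. Macrophage markers (6 of 6) summed to 5120, 627 and 8160 in 4+11 day replicates 4, 8 and 12 and to 1690, 130 and 4670 in the 4+8 day replicates. They summed to 82.3 to 246 in undifferentiated and 268 to 424 in feeder cells. The replicate with the lowest macrophage sum in each differentiated group was also the one with the lowest 95546_g_at reading. Across groups the order differed, since both feeder arrays read above all 4+8 day arrays with lower macrophage sums than 4+8 day replicates 1 and 3. The part of these markers was not tested. The defining macrophage markers C1qa and C1qb lay at or below the filter on 1 and 1 of the 4+8 day arrays and on none of the 4+11 day arrays. In bulk RNA of this kind, fewer cells of a type and less RNA per cell cannot be told apart.

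**Figure D2:**
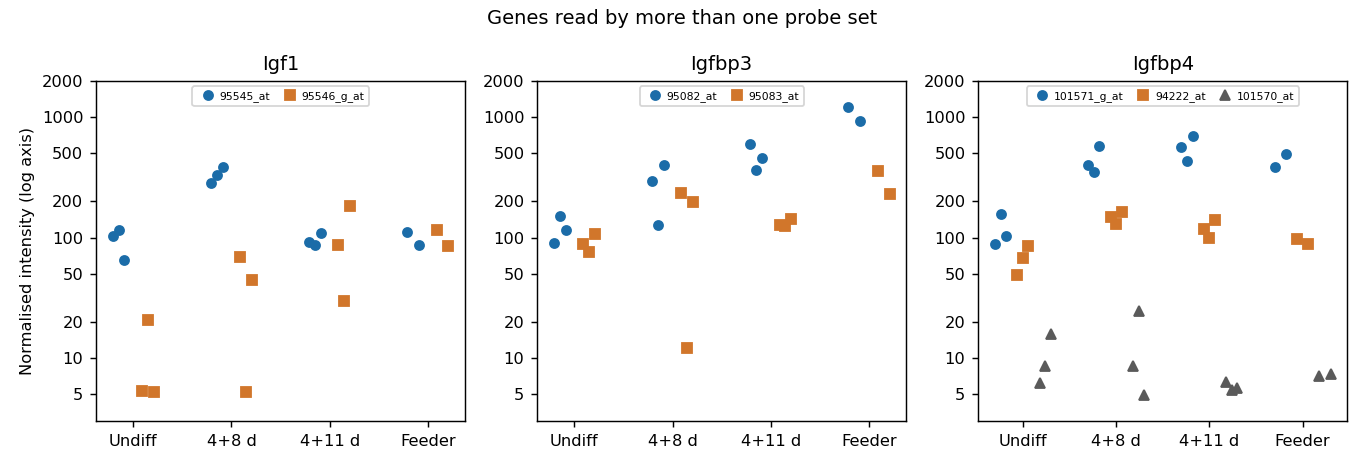
Normalised intensity (log y axis) of every probe set of Igf1, Igfbp3 and Igfbp4 on each of 11 arrays, 1 symbol shape and colour for each probe set, with arrays of 1 group side by side. The 4+8 day arrays stand apart for Igf1 95545_at, at 283 to 385, and not for 95546_g_at; levels of different probe sets are not comparable.

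Igf1r encodes the receptor kinase that binds IGF1 and IGF2. Its probe set 102224_at read 223, 146 and 143 in undifferentiated cells. It read 33, 290 and 317 at 4+8 days. At 4+11 days the readings were 338, 309 and 293. Replicate 1 of the 4+8 day group was the lowest of all 11 arrays, while the others of its group and all 4+11 day arrays lay above the undifferentiated ones. Feeder arrays read 514 and 405, the highest of all. No comparison passed the test: 4+8 days against undifferentiated gave −0.15 (SE 0.65, adjusted p = 0.878), 4+11 days 0.87 (SE 0.65, adjusted p = 0.392) and feeder cells 1.41 (SE 0.73, adjusted p = 0.211). Without 4+8 day replicate 1 the 4+8 day difference turned its direction, to 0.83 (adjusted p = 0.0245). The other differences kept their size at 0.87 (adjusted p = 0.0204) and 1.41 (adjusted p = 0.00463), and all 3 passed. As deposited, without normalisation, the 4+8 day difference was 0.77 (adjusted p = 0.266). Within fluidics runs 1 and 2 the 4+11 day difference was 0.87 and 1.07 and the feeder difference 1.47 and 1.45. In order of level the groups ran from feeder through 4+11 day and undifferentiated to 4+8 day cells, with no neighbours that differed by the test.

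Igfbp2, a binding protein of embryonic and neural tissue, was among the genes with no call. Probe set 98627_at read 1090, 704 and 770 in undifferentiated cells. It read 1280, 1040 and 1600 at 4+8 days. At 4+11 days it read 580, 1460 and 248, a spread that covered the whole of the undifferentiated range. Feeder arrays read 610 and 489, below all undifferentiated and 4+8 day arrays. The differences from undifferentiated cells were 0.61 (SE 0.51, adjusted p = 0.372) at 4+8 days, −0.49 (SE 0.51, adjusted p = 0.558) at 4+11 days and −0.61 (SE 0.57, adjusted p = 0.512) in feeder cells. From 4+8 to 4+11 days the difference was −1.10 (SE 0.51, adjusted p = 0.148). Without 4+11 day replicate 8 it was −1.74 (adjusted p = 0.017). Within runs 1 and 2 the 4+11 day difference from undifferentiated cells had opposite signs, −0.59 and 0.92.

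The 4+11 day replicate with the most Igfbp2, replicate 8, also had the highest sum of neural progenitor markers (8 of 8 had a probe set), at 9260 against 3390 in replicate 4 and 1370 in replicate 12. The order of the 3 replicates was the same for both. Within this list at 4+11 days, Fabp7 read 31.7 to 4700 and Sox11 426 to 3000. Msi1 lay at or below the filter on all 3 of these arrays and Pax6 on 2. At 4+8 days the sums were 2020, 4390 and 1820, and replicate 2, with the highest of them, had the lowest Igfbp2 of that group. Undifferentiated cells had sums of 657 to 746 and feeder cells 2050 to 2590. Neuronal markers (6 of 6) summed to 3420 in 4+11 day replicate 8 against 1420 and 1300 in replicates 4 and 12, and to 965 to 3150 at 4+8 days, 1280 to 1640 in undifferentiated and 1220 to 1250 in feeder cells. Of the defining neuronal markers, Map2 lay at or below the filter on every array and Tubb3 above it on every array. The part of either list in the Igfbp2 values was not tested.

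Igfbp3, the main carrier of IGFs in serum, rose at 4+11 days and was highest in feeder cells. Its probe set 95082_at read 89.5, 151 and 116 in undifferentiated cells. After 4+8 days the readings were 296, 128 and 400. The 4+11 day replicates read 598, 365 and 459, all above the undifferentiated range, whereas 4+8 day replicate 2 lay inside it. Feeder arrays read 1220 and 937, above every array of the other groups. Against undifferentiated cells the difference was 1.04 (SE 0.39, adjusted p = 0.0569) at 4+8 days, just short of the threshold. It was 1.93 (SE 0.39, adjusted p = 0.00856) at 4+11 days and 3.11 (SE 0.43, adjusted p = 0.00165) in feeder cells. Within runs 1 and 2 the 4+11 day difference was 2.28 and 1.59, and the feeder difference 3.3 and 2.93. Feeder cells exceeded 4+8 day cells as well (4+8 day minus feeder −2.07, SE 0.43, adjusted p = 0.00762). The 4+11 day and feeder groups, which do not overlap, differed by −1.19 (SE 0.43, adjusted p = 0.2). In the order feeder, 4+11 day, 4+8 day, undifferentiated, no step between neighbours passed in this fit. The step between 4+11 day and feeder cells passed with array weights (−0.91, adjusted p = 0.0238), without the 4+8 day arrays (−1.19, adjusted p = 0.0443) and without 4+8 day replicate 2 (−1.19, adjusted p = 0.0496). That from 4+8 to 4+11 days passed without 4+8 day replicate 3 (1.22, adjusted p = 0.0405).

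Single arrays and settings decided part of this. Without the arrays of the other wash protocol the 4+11 day difference of Igfbp3 kept its size, 1.93, with an adjusted p of 0.0794. The 4+8 day difference passed without 4+8 day replicate 2 (1.5, adjusted p = 0.0038) and in 3 other settings given below. The second probe set, 95083_at, read 88, 75.8 and 108 in undifferentiated cells. It read 236, 12.1 and 198 at 4+8 days, where replicate 2 was again the lowest. It read 128, 126 and 143 at 4+11 days and 361 and 230 in feeder cells, above all undifferentiated arrays in both groups. The differences of this probe set from undifferentiated cells were 0.04 (adjusted p = 0.972), 0.52 (adjusted p = 0.681) and 1.60 (adjusted p = 0.224), none of them called. Without 4+8 day replicate 2 the first was 1.2 (adjusted p = 0.00421) and the last 1.6 (adjusted p = 0.00213), and both passed. The feeder difference also passed with array weights (adjusted p = 0.00556), without the 4+8 day arrays (0.00227) and with the run as a block (0.00665). The 4+11 day difference passed in none of 19 settings. The 2 Igfbp3 probe sets correlated at r = 0.71 over 11 arrays.

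Igfbp4, a binding protein that keeps IGFs from the receptor until PAPP-A cuts it, was higher in all 3 other groups than in undifferentiated cells. Its probe set 101571_g_at read 89.3, 156 and 104 in undifferentiated cells. At 4+8 days it read 403, 350 and 576. At 4+11 days it read 561, 437 and 704, and in feeder cells 383 and 498. Every one of these 8 arrays lay above the undifferentiated arrays, and the 3 other groups overlapped with each other. The differences were 1.86 (SE 0.28, adjusted p = 0.000936) at 4+8 days, 2.22 (SE 0.28, adjusted p = 0.00103) at 4+11 days and 1.87 (SE 0.31, adjusted p = 0.00373) in feeder cells. All 3 calls held in every alternative setting. Within runs 1 and 2 the 4+11 day difference was 2.17 and 1.99, and the feeder difference 1.63 and 2.18. Among themselves the other groups differed by 0.36 (4+11 minus 4+8 days, adjusted p = 0.387), −0.01 (4+8 day minus feeder, adjusted p = 0.983) and 0.34 (4+11 day minus feeder, adjusted p = 0.719).

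A further probe set of Igfbp4, 94222_at, gave smaller differences in the same direction. It read 48.9, 68 and 85.3 in undifferentiated cells, 148, 130 and 164 at 4+8 days, 117, 99.9 and 140 at 4+11 days and 96.6 and 88.7 in feeder cells. No array of the other groups fell into the undifferentiated range. The differences were 1.07 (SE 0.22, adjusted p = 0.00485) at 4+8 days, 0.77 (SE 0.22, adjusted p = 0.0373) at 4+11 days and 0.45 (SE 0.25, adjusted p = 0.243) in feeder cells. The 4+11 day call was kept in 10 of 19 alternative settings. It correlated with 101571_g_at at r = 0.801 over 11 arrays. The last, 101570_at, read between 4.9 and 24.4 on all arrays and was not tested, since 0 arrays passed the filter.

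**Figure D3:**
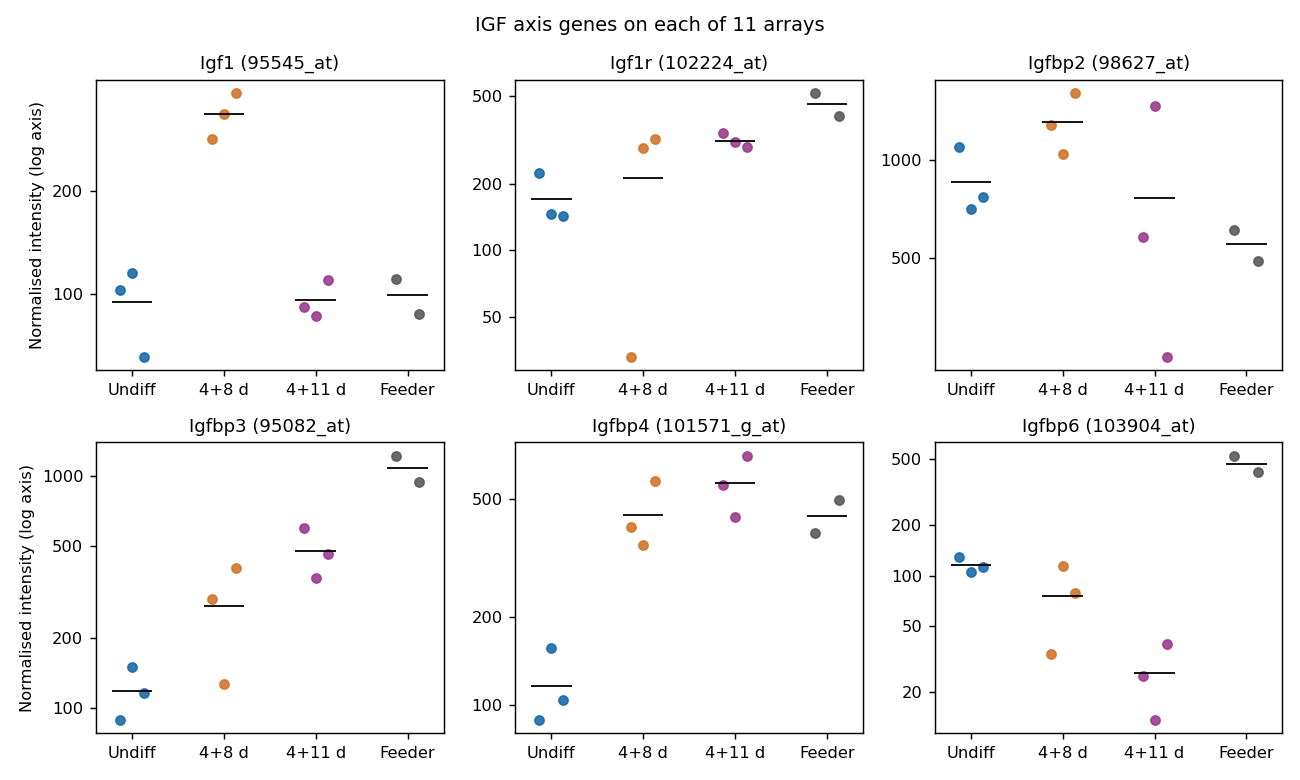
Normalised intensity (log y axis) of the 6 genes on each of 11 arrays, by group, with a point for each array and a line at the arithmetic mean of the group. Igfbp4 lies at 350 or more on all arrays outside the undifferentiated group, and Igfbp6 at 416 and 524 in feeder cells against 13.7 to 39.2 at 4+11 days.

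Igfbp6, a binding protein with a strong preference for IGF2, went opposite ways in 4+11 day and feeder cells. Its probe set 103904_at read 129, 105 and 113 in undifferentiated cells. After 4+8 days it read 34.1, 115 and 78.6, and overlapped with that range. The 4+11 day replicates read 25, 13.7 and 39.2, below all undifferentiated arrays. Feeder arrays read 524 and 416, above every other array. Igfbp6 fell at 4+11 days (−1.93, SE 0.39, adjusted p = 0.00883) and was higher in feeder cells by 1.94 (SE 0.44, adjusted p = 0.0129). The 4+8 day difference was −0.69 (SE 0.39, adjusted p = 0.189), and 0.39 (adjusted p = 0.4) with the values as deposited. Against feeder cells the differences were −2.63 (SE 0.44, adjusted p = 0.00293) at 4+8 days and −3.88 (SE 0.44, adjusted p = 0.00152) at 4+11 days. Within runs 1 and 2 the 4+11 day difference was −1.92 and −2.47 from undifferentiated cells and −4.01 and −4.29 from feeder cells.

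Some Igfbp6 calls were less firm. The step from 4+8 to 4+11 days passed narrowly (−1.24, SE 0.39, adjusted p = 0.0446) and was kept in 5 of 17 alternative settings, where the adjusted p reached 0.128. The feeder difference did not pass without feeder replicate 6 (1.78, adjusted p = 0.109) or 10 (2.11, adjusted p = 0.0643), each of which left a lone feeder array. In order of level Igfbp6 ran from feeder through undifferentiated and 4+8 day to 4+11 day cells, and the first and last steps passed.

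The undifferentiated cells grew on fibroblasts, so fibroblast markers are given beside the binding proteins. Of 15 markers tested, 9 were higher and 1 lower in feeder than in undifferentiated cells, where 20.4% of all probe sets were called. At 4+8 days 5 were higher and 2 lower (37.1% of all called), and at 4+11 days 3 higher and 1 lower (18.7%). Against feeder cells 0 were higher and 6 lower at 4+8 days (27.4%) and also at 4+11 days (2.93%). Thy1 and Mmp3 were singled out after their values were seen. Thy1, a surface glycoprotein, read 654 to 834 on the undifferentiated, 109 to 484 on the 4+11 day, 6.97 to 31.8 on the 4+8 day and 1120 to 2310 on the feeder arrays. Mmp3, a matrix protease, read 1010 to 2490 in undifferentiated cells, 213 to 361 in feeder cells and 3.08 to 24.6 on the differentiated arrays. Of the other markers, Col1a2, Col3a1, Postn, Lum and Cxcl12 read above the undifferentiated range at 4+8 days, and Pdgfra, Pdgfrb and S100a4 below it. The rest overlapped with that range. At 4+8 days Col3a1 read 2080 to 4270 against 743 to 1090 in undifferentiated cells, and Lum 1160 to 3420 against 389 to 525. In the differentiated groups the fibroblast sum was 27600, 12200 and 45800 in 4+8 day replicates 1, 2 and 3, and 29300, 16100 and 19000 in 4+11 day replicates 4, 8 and 12. The lowest sum in each of these groups fell on the replicate with the lowest Igfbp3 and Igfbp4, while Igfbp6 was highest on that replicate at 4+8 days and lowest on it at 4+11 days. The part of these markers in the levels of the binding proteins was not tested.

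**Figure D4:**
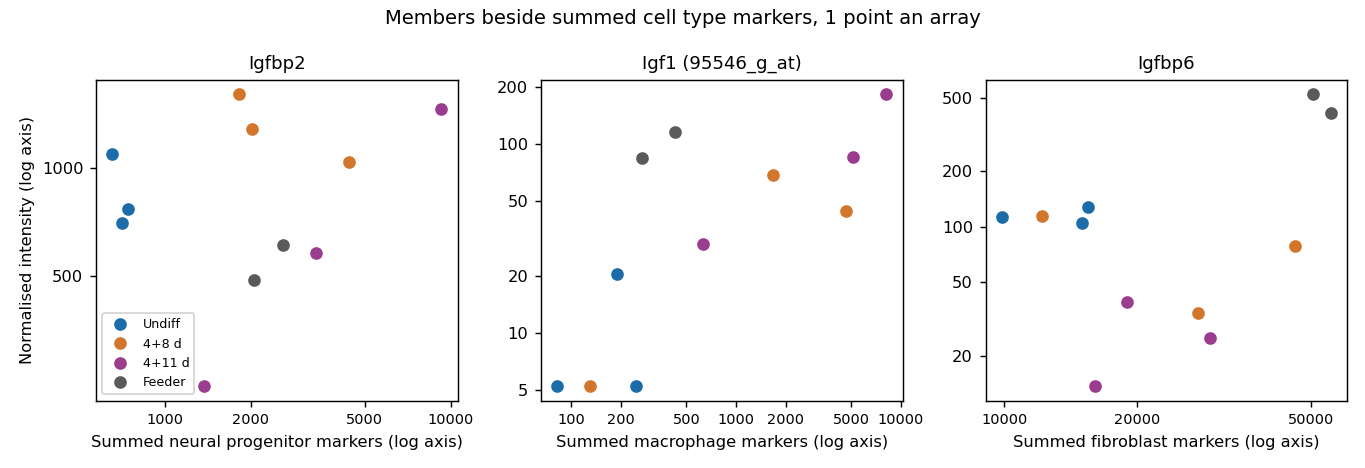
Normalised intensity (log y axis) of Igfbp2, of Igf1 probe set 95546_g_at and of Igfbp6 against the summed intensity of neural progenitor, macrophage and fibroblast markers (log x axes), 1 point for each of 11 arrays, coloured by group. For Igfbp6 the 4+11 day arrays lie at 13.7 to 39.2, with fibroblast sums of 16100 to 29300, and the feeder arrays at 416 and 524, with sums of 50500 to 55400.

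The 250 bases before the transcription start listed by RefSeq (GRCm38.p6) are shown for Igfbp3 and Igfbp4, which were both higher at 4+11 days and in feeder cells, and for Igfbp6, which was higher in feeder and lower in 4+11 day cells. All 6 genes had such a window. For Igfbp3 (chr11:7213924-7214173, minus strand) and Igfbp4 (chr11:99040994-99041243, plus strand) the start lies inside the gene's full annotated span, so another annotated transcript begins farther upstream. Igfbp6 is at chr15:102143936-102144185, plus strand. Capitals mark matches to TATAAA or TATATA, letters of the TATA box that positions the transcription machinery, searched on both strands with overlaps allowed.
Igfbp3: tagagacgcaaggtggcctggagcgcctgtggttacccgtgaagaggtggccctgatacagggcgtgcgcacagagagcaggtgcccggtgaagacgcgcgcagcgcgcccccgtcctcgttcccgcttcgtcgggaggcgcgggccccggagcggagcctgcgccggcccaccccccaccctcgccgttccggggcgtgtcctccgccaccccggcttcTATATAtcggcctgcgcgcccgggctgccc
Igfbp4: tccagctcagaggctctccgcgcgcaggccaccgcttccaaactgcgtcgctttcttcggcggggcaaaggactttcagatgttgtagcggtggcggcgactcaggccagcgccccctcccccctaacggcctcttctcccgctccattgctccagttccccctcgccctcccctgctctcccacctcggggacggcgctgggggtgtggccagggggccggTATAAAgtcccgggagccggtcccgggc
Igfbp6: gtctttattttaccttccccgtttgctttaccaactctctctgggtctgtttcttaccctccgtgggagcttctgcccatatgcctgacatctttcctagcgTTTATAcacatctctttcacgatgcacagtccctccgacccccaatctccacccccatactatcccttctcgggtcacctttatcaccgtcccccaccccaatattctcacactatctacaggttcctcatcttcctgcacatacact
In Igfbp3 the match is to TATATA and begins 30 bases before the start, and in Igfbp4 it is to TATAAA and begins 28 bases before it. In Igfbp6 the match to TATAAA lies on the other strand, with its first base on the printed strand 148 before the start. Of 32851 such windows, 12.4% held TATAAA and 5.25% TATATA. Another motif, GGGCGG, the core of GC boxes, was held by 32.7% of windows, by none of the printed ones, and among the 6 genes by Igf1r (2 matches) and Igfbp2 (3 matches). The G and C share was 73.2% for Igfbp3, 69.2% for Igfbp4 and 49.6% for Igfbp6, with 32, 22 and 7 CpG dinucleotides, against medians of 52.4% and 6 over all windows. The letters are a description, and none of these windows was tested for activity.

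The 6 genes did not follow 1 common pattern. Over the 11 arrays, log2 values of Igfbp3 and Igfbp4 correlated at r = 0.76, and the other pairs lay between −0.38 (Igfbp2 with Igfbp3) and 0.49 (Igf1 with Igfbp2). All points share their arrays and the 4 groups. Among 6645 other genes, those most like Igf1 were Tpm3, a tropomyosin (r = 0.986), Nomo1 (0.986) and Sct, which encodes secretin (0.982). Those most like Igf1r were Copa, a coatomer subunit (0.968), Cenpb, a centromere protein (0.955), and Efnb1, an ephrin (0.95). For Igfbp2 they were Rgs8, a regulator of G protein signalling (0.912), Pheta1 (0.889) and Rdh11, a retinol dehydrogenase (0.864). Csrp1, a LIM protein (0.972), Cavin1, a caveolar coat protein (0.969), and Prss23, a secreted protease (0.961), were most like Igfbp3. Tmem9b (0.98), Selenok, a selenoprotein (0.973), and Fez2 (0.962) were most like Igfbp4, and Sec16a, of endoplasmic reticulum exit sites (0.928), Twist2, a mesenchymal transcription factor (0.919), and Cd55, an inhibitor of complement (0.905), most like Igfbp6. Mean levels of Twist2 were 233 in undifferentiated, 201 in 4+8 day, 132 in 4+11 day and 478 in feeder cells. Those of Prss23 were 60.7, 311, 349 and 1110 in the same order.

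The remaining pathway was followed through 49 listed genes, of which 30 had a probe set and 25 were tested. Of these 25, 5 were higher and 1 lower at 4+8 days than in undifferentiated cells, where 37.1% of all probe sets were called. At 4+11 days 4 were higher and 1 lower (18.7% of all called), and in feeder cells 7 higher and 1 lower (20.4%). From 4+8 to 4+11 days 3 were higher and 2 lower (23.1%). Against feeder cells 2 were higher and 7 lower at 4+8 days (27.4%), and 0 higher and 1 lower at 4+11 days (2.93%). The medians of the 25 genes were 0.04, 0.11, 0.68, 0.04, −0.48 and −0.13 in these 6 comparisons, against 0.01, −0.03, −0.02, 0.05, 0.01 and 0.02 over all probe sets.

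Among ligands, receptors and carriers, 4 of 9 listed genes were tested, and the 5 dim probe sets left untested in all lists were those of Igfals, Ins2, Insr, Insrr and Irs1. Igf2, the other IGF and an imprinted gene, read 1640, 3530 and 1850 in undifferentiated cells. It read 13700, 6270 and 15300 at 4+8 days, 9270, 9270 and 10300 at 4+11 days, and 9730 and 7150 in feeder cells. All 8 arrays outside the undifferentiated group were higher than those within it. The differences were 2.31 (adjusted p = 0.00141), 2.12 (adjusted p = 0.00504) and 1.92 (adjusted p = 0.0117). Igf2r, which takes IGF2 to lysosomes and does not signal as the IGF1 receptor does, read 253, 358 and 245 in undifferentiated cells against 628, 874 and 1220 at 4+8 days, 885, 625 and 749 at 4+11 days and 715 and 538 in feeder cells. Its differences were 1.61 (adjusted p = 0.00182), 1.38 (adjusted p = 0.00837) and 1.12 (adjusted p = 0.0298), and again no array overlapped with the undifferentiated ones. Both 4+11 day calls were lost without the arrays of the other wash protocol (adjusted p = 0.0679 for Igf2 and 0.0911 for Igf2r). The feeder calls were lost there too (adjusted p = 0.0662 and 0.125), without feeder replicate 6 (0.109 and 0.215) or 10 (0.0534 and 0.0818), for Igf2 when scaled to 1 trimmed mean (0.0515) and for Igf2r without undifferentiated replicate 1 (0.0908) or 9 (0.0943). Igfbp1 was called higher at 4+8 days (1.65, adjusted p = 0.0365), a call kept in 8 of 17 settings. Its readings were 38.9, 21.6 and 45.4 against 4.09 to 8.09 in undifferentiated cells. Igfbp7 read 12.8 to 25.8 at 4+8 days, below the intensity filter on every array, and 61.8 to 79.7 in feeder cells. Igfbp7 was lower at 4+8 days than in feeder cells (−1.52, adjusted p = 0.0115), but not as deposited (−0.70, adjusted p = 0.15), scaled to 1 trimmed mean (adjusted p = 0.0696) or without feeder replicate 10 (−1.35, adjusted p = 0.102).

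Of the proteases and related secreted proteins, 6 of 10 listed genes were tested. Against undifferentiated cells 0 were called at 4+8 days (37.1% of all probe sets called). At 4+11 days 1 was higher and 0 lower (18.7%), and in feeder cells 4 were higher and 0 lower (20.4%). Htra1, a secreted serine protease that cuts IGF binding proteins, read 198, 229 and 145 in undifferentiated cells and 151, 102 and 101 at 4+8 days. It read 489, 461 and 696 at 4+11 days and 673 and 504 in feeder cells, above all arrays of the first 2 groups. It rose at 4+11 days by 1.48 (adjusted p = 0.00456) over undifferentiated and by 2.14 (adjusted p = 0.00131) over 4+8 day cells. The first call was lost with the arrays of the other wash left out (1.13, adjusted p = 0.0616). Ccn3, a matricellular protein, read 683 and 611 in feeder cells, 10.8, 115 and 50.2 in undifferentiated cells, 11.5, 3.31 and 8.96 at 4+8 days and 5.47, 5.53 and 46.8 at 4+11 days. Feeder cells stood above all other arrays, by 3.67 (adjusted p = 0.00997) over undifferentiated cells, with −5.40 (adjusted p = 0.00142) and −4.92 (adjusted p = 0.00888) for 4+8 and 4+11 day minus feeder cells. Without feeder replicate 6 or 10 the calls against undifferentiated cells (adjusted p = 0.079 and 0.0643) and 4+11 day cells (0.0798 and 0.0912) were lost. Ccn2, also matricellular, was higher in feeder than in undifferentiated cells (2.24, adjusted p = 0.0266), a call lost without the arrays of the other wash (adjusted p = 0.101), without undifferentiated replicate 1 (0.0856) or 9 (0.0733), or feeder replicate 6 (0.102) or 10 (0.166).

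In receptor signalling, 14 of 27 listed genes were tested. Against undifferentiated cells 2 were higher and 1 lower at 4+8 days (37.1% of all probe sets called). At 4+11 days 1 was higher and 0 lower (18.7%), and in feeder cells 1 was higher and 0 lower (20.4%). The others, 11, 13 and 13 in the same order, did not pass. Akt1, a kinase downstream of the receptor, read 197, 208 and 203 in undifferentiated cells. It read 578, 435 and 526 at 4+8 days, 579, 534 and 558 at 4+11 days and 562 and 573 in feeder cells. Its differences were 1.30 (adjusted p = 0.000389), 1.42 (adjusted p = 0.000696) and 1.45 (adjusted p = 0.00106), each kept in every alternative setting. Akt2, a second Akt kinase, was higher at 4+8 days (1.41, adjusted p = 0.00067) and then lower at 4+11 than at 4+8 days (−0.85, adjusted p = 0.0155), the latter lost with array weights (adjusted p = 0.0785) and without the arrays of the other wash (0.0643). Shc1, an adaptor of the receptor, was lower at 4+8 days (−0.90, adjusted p = 0.00887) and higher at 4+11 than at 4+8 days (0.92, adjusted p = 0.0146). As deposited these Shc1 differences were −0.05 (adjusted p = 0.875) and 0.47 (adjusted p = 0.195), and the second was also lost without the arrays of the other wash (adjusted p = 0.0783) and without 4+11 day replicate 4 (0.05) or 12 (0.0501). Pik3r1, a regulatory subunit of phosphoinositide 3-kinase, read 1.66 to 22.8 at 4+8 days, below the intensity filter on every array. It read 38.1 to 48.9 at 4+11 days, just above the filter, and was called higher there than at 4+8 days (1.49, adjusted p = 0.0223). That call was lost as deposited (0.66, adjusted p = 0.292), scaled to 1 trimmed mean (0.96, adjusted p = 0.114), without the arrays of the other wash (1.58, adjusted p = 0.0724) and without 4+11 day replicate 4 (1.46, adjusted p = 0.071) or 8 (1.43, adjusted p = 0.057). At 4+8 days Irs2, an insulin receptor substrate, was lower than in feeder cells (−1.76, adjusted p = 0.0371), as were Shc1 (−1.58, adjusted p = 0.00185) and Pik3r1 (−1.68, adjusted p = 0.0184). The Irs2 call was kept in 7 of 16 settings and the Pik3r1 call in 13 of 16; as deposited they were −0.96 (adjusted p = 0.21) and −0.90 (adjusted p = 0.193), scaled to 1 trimmed mean −1.24 (adjusted p = 0.123) and −1.12 (adjusted p = 0.0936), and without feeder replicate 6 −1.84 (adjusted p = 0.131) and −1.25 (adjusted p = 0.153). Irs2 was also lost without feeder replicate 10 (adjusted p = 0.177) and 4+8 day replicate 1 (0.0692) or 3 (0.0732), without 4+11 day replicate 4 (0.0501) or undifferentiated replicate 5 (0.0538), and with array weights (0.0615). The Shc1 call held in all 16.

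Of 3 mRNA binding proteins that bind Igf2 transcripts, Igf2bp1 was tested. It read 509, 476 and 629 in undifferentiated cells and 576, 736 and 393 at 4+8 days, ranges that overlap. It read 273, 297 and 142 at 4+11 days and 113 and 88.5 in feeder cells, both below all undifferentiated arrays. The log2 differences were −1.21 (adjusted p = 0.0249) at 4+11 days and −2.33 (adjusted p = 0.00244) in feeder cells. Of these, the call at 4+11 days was kept in 12 of 19 settings: it was lost as deposited (−0.90, adjusted p = 0.137), without the arrays of the other wash (−0.77, adjusted p = 0.204), without undifferentiated replicate 1 (0.069), 5 (0.0545) or 9 (0.0957) and without 4+11 day replicate 4 (0.0526) or 12 (0.0742). Igf2bp1 was also lower at 4+11 than at 4+8 days (−1.25, adjusted p = 0.0204), a call lost with array weights (0.0527), without the arrays of the other wash (0.0766) and without 4+11 day replicate 12 (0.0569).

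**Figure D5:**
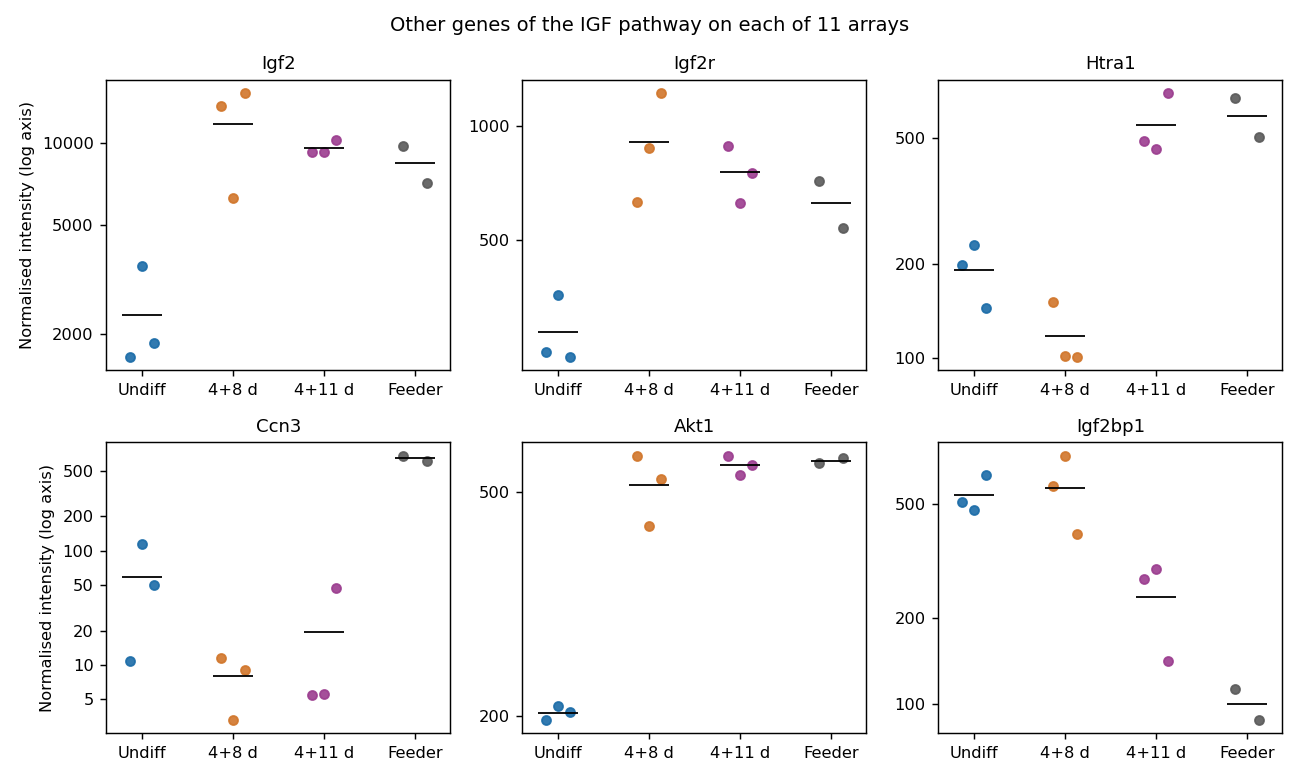
Normalised intensity (log y axis) of Igf2, Igf2r, Htra1, Ccn3, Akt1 and Igf2bp1 on each of 11 arrays, by group, with a point for each array and a line at the arithmetic mean of the group. Akt1 lies at 197 to 208 in undifferentiated cells and at 435 or more elsewhere, and Ccn3 at 611 and 683 in feeder cells alone.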

How the data were processed

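The 11 RNA samples were measured on Affymetrix MG_U74Av2 arrays, a chip type given in the experiment files. The values deposited by the authors were linear intensities, 1 per probe set and array, and how they were summarised from the probes is not stated in the labels or file headers. Trimmed means (2% at each end) ran from 86.15 to 200.12, a ratio of 2.323. They were 200.11 to 200.12 on the 4+8 day arrays and 86.15 to 160.21 on the others. Any difference in scaling before deposit thus goes with the 4+8 day group. The ratio lay above the limit of 1.25 for use as deposited, so the intensities were quantile normalised over the 11 arrays. Values were tested as log2(intensity + 8), 8 being the 20th percentile of deposited values. Of 12488 probe sets, 66 controls were left out, and a filter required more than 33.4 (the 40th percentile) on 2 or more arrays. It passed 8940 probe sets, among them those of 6646 genes with 1 symbol. Symbols came from the platform annotation: 10833 probe sets had 1 symbol, 396 several and 1193 none. Where a gene had several probe sets, the brightest by mean stands for it. The others are described beside it for the IGF axis genes only. Pathway and marker genes are given by the brightest alone, among them Igf2, Igfbp1 and Shc1, which had 2 probe sets each.

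Groups were taken from the sample titles. limma 3.58.1 in R 4.3.3 (lmFit, eBayes) was fitted to all arrays with group as the only factor (residual degrees of freedom 7, prior 3). Two-sided p-values were adjusted by Benjamini-Hochberg over the 8940 probe sets, and an adjusted p below 0.05 is a call. The script was tested on simulated data. Every adjusted p is from this model unless another setting is named. The number of arrays limits the precision, and 0 columns were identical.

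All probe sets with 1 symbol of the 6 IGF axis genes are described. The 3 genes with the highest Pearson correlation to each, and up to 3 called genes with the largest change for each of 4 pathway lists and comparison, are named, as are some list members beside them. Cell type markers, 8 lists, were summed per array. The members and lists were chosen with earlier results of these data known. Scan session, chip lot, fluidics run and wash protocol were read from the experiment files. Promoter windows came from RefSeq. The alternatives were values as deposited, scaling to 1 trimmed mean, another pseudocount, no filter, array weights, the run as a block, and leaving out arrays.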

Additional observations from a re-analysis of the deposited data

How the results depend on the processing

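Of 14 calls of the 6 genes, 10 kept call and direction in each of 16 to 19 alternatives, and the 4 others (Igfbp3 at 4+11 days against undifferentiated and at 4+8 days against feeder cells, Igfbp6 in feeder against undifferentiated and at 4+11 against 4+8 days) were lost in at least 1. Igfbp3 at 4+8 days against feeder cells was lost without feeder replicate 6 (−1.88, adjusted p = 0.065). The direction turned, with a call, for Igf1r at 4+8 days against undifferentiated cells (0.83) without 4+8 day replicate 1; leaving out single arrays gave −0.67 to 0.83. Igfbp3 at 4+8 days against undifferentiated cells passed as deposited (1.96, adjusted p = 0.000722), scaled to 1 trimmed mean (1.15, adjusted p = 0.0265) and with array weights (1.3, adjusted p = 0.0297). Igf1r passed without the 4+8 day arrays at 4+11 days (0.87, adjusted p = 0.0154) and in feeder cells (1.41, adjusted p = 0.00341), with the run as a block (0.96, adjusted p = 0.0247, and 1.45, adjusted p = 0.00563) and with array weights (0.83, adjusted p = 0.0465, and 1.28, adjusted p = 0.0216). Igfbp2 at 4+8 days against feeder cells passed without 4+11 day replicate 8 (1.22, adjusted p = 0.0379) or 12 (1.22, adjusted p = 0.0471), and Igf1r with array weights (−1.97, adjusted p = 0.038). The causes were not tested.

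The number of genes called from 4+8 to 4+11 days was 1 in place of 2 with no filter, with array weights and without the other wash protocol, and 1 to 2 when single arrays were left out. Between 4+11 day and feeder cells it was 2 in place of 1 with array weights and without the 4+8 day arrays, and 1 to 2 when single arrays were left out. Leaving out single arrays gave 2 to 3 (4+8 days), 3 to 4 (4+11 days) and 2 to 4 (feeder) against undifferentiated cells and 2 to 4 for 4+8 day against feeder cells.

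Scaling moved all probe sets. As deposited, the median of all shifted by 1.07 at 4+8 days, 0.26 at 4+11 days and 0.32 in feeder cells against undifferentiated cells, by −0.65 from 4+8 to 4+11 days and by 0.64 for 4+8 day against feeder cells. The share of calls that were higher then went from 46.4% to 93.6%, 49.4% to 82.5%, 49.3% to 83.7%, 53.1% to 5.49% and 45.6% to 86.3%, and from 38.5% to 25.2% for 4+11 day against feeder cells. Scaled to 1 trimmed mean it was 62.6% at 4+8 days, 30.7% from 4+8 to 4+11 days and 65.1% for 4+8 day against feeder cells. The count of probe sets called against undifferentiated cells was 3316 at 4+8 days (6052 as deposited, 2076 without the other wash protocol). It was 1668 at 4+11 days (4621 with array weights, whose estimation stopped short of its tolerance, 406 without the other wash protocol, 2731 without the 4+8 day arrays) and 1820 in feeder cells (3868, 780 and 2843, and 3135 with the run as a block). From 4+8 to 4+11 days it was 2062 (3733 as deposited, 909 without the other wash protocol), for 4+8 day against feeder cells 2452 (3747 as deposited), and for 4+11 day against feeder cells 262 (1975 with array weights, 124 without the other wash protocol, 664 without the 4+8 day arrays, 616 with the run as a block). Leaving out single arrays moved these counts by over 1.5 times as follows: at 4+11 days against undifferentiated cells to 874, 1013 and 832 without undifferentiated replicates 1, 5 and 9 and to 778 and 1080 without 4+11 day replicates 4 and 12, and from 4+8 to 4+11 days to 969 and 1313 without the same replicates 4 and 12. In feeder against undifferentiated cells they gave 1062 and 976 without undifferentiated replicates 1 and 9, and 487 and 565 without feeder replicates 6 and 10, each of which leaves a lone feeder array assumed to vary like the other groups. Those 2 gave 1036 and 728 for 4+8 day and 80 and 47 for 4+11 day against feeder cells, where 4+11 day replicate 4 gave 135 and 4+8 day replicate 2 gave 460. No paired analysis was possible because the groups compared share at most 1 replicate number.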
